A study of Mus musculus with 40 samples.

Results

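The genes of the cytosolic ribosomal proteins were examined in RNA-seq libraries of mouse cardiac fibroblasts. They were taken as the protein-coding genes whose symbol is Rpl or Rps followed by a number, with Rpsa and Rplp0 to Rplp2, without the Rps6k kinases and without symbols that carry "-ps", and with at least 10 counts in total over 40 libraries. This gave 85 genes out of 25210 genes tested. Of these, 77 encode core proteins of the ribosome (46 of the large subunit and 31 of the small subunit), 7 are paralogs of a core gene (Rpl3l, Rpl7l1, Rpl22l1, Rpl36al, Rpl39l, Rps27l and Rps27rt), and Rps19bp1 encodes a protein that binds Rps19 and is not a ribosomal protein. Rpl10l had no counts and was left out, as were 7 symbols that the annotation lists as pseudogenes. The marker genes Rpl3 and Rps6 were present in all libraries, and 83 of the 85 genes had a mean of at least 1 CPM (the usual per-library scaling of counts, here with TMM factors), with Rpl3l and Rpl39l below it. The 85 genes lie on 19 chromosomes, 4 of them on chromosome X.

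Fibroblasts were isolated from adult TAK1 fl/fl hearts on a C57BL/6J background, in which loxP sites flank an exon of Map3k7, the gene of the kinase TAK1. At passage 1 the cells received adenovirus with LacZ or with iCre under the CMV promoter, so that every group, the LacZ groups included, carried the floxed alleles and a virus. After serum starvation they were left without ligand (CTRL) or were given bFGF at 20 ng/ml, TGFβ at 10 ng/ml, IL-1β at 15 ng/ml or TNFα at 10 ng/ml for 24 h, and all had been grown in medium with bFGF beforehand. Each of the 10 groups had 4 replicates. The study describes its replicates as biological and from male mice, but neither it nor the labels tie the libraries to single animals, so the p-values measure the spread between these samples.

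The cytosolic ribosome is built from a small subunit, which reads the mRNA, and a large subunit, which joins the amino acids, and both hold close to equal numbers of copies of each protein. Many mRNAs of ribosomal proteins and translation factors start with a cytosine followed by a run of pyrimidines, the 5′ terminal oligopyrimidine (TOP) motif, through which mTORC1 and the binding protein LARP1 control their translation and stability. Fibroblasts depend on this machinery to make the extracellular matrix they secrete. Some of the paralogs can take the place of the core protein in the ribosome, and several core proteins have roles outside it, for example in p53 control.

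Sequences around the start of transcription are shown for genes with and without such a run, since the runs are what is known to set the ribosomal protein mRNAs apart from other mRNAs. Each has 30 bases, 15 before and 15 from the RefSeq start on (GRCm38.p6), 5′ to 3′ on the strand of the gene, and base 16 is the first transcribed base. Capitals mark a run, defined as a C followed by at least 4 further C or T, searched on the strand of the gene. Of the runs that begin within 10 bases of the start only the one that begins nearest to it is marked, and pyrimidines before that C stay in lower case. The first 5 are core genes and a paralog with the run exactly at the start, and the others are the genes whose values differed most from the rest together with their partners.
Rps6, chr4:86857353-86857382, strand −: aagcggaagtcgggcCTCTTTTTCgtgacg
Rps18, chr17:33955651-33955680, strand −: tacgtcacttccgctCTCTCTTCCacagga
Rpl15, chr14:18270972-18271001, strand −: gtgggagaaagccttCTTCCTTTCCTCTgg
Rps27, chr3:90213634-90213663, strand −: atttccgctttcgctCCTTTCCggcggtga
Rps27rt, chr9:114982725-114982754, strand −: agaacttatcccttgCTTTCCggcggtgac
Rps27l, chr9:66946071-66946100, strand +: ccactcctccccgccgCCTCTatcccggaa
Rpl22, chr4:152325711-152325740, strand +: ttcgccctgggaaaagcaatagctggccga
Rpl22l1, chr3:28805493-28805522, strand +: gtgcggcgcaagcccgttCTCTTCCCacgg
Rpl36al, chr12:69184053-69184082, strand −: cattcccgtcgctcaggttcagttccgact
Rps28, chr17:33824548-33824577, strand −: ggtaccgcgtgcggtctcgcgagagcgaaa
Rpl37a, chr1:72711245-72711274, strand +: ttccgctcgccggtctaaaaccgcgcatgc
Of the 65 members with an entry in the promoter table, 39 (60.0%) had a run near the start and 14 (21.5%) exactly at it, while 20 had no entry. These members have 77 starts in the table, and a gene counts if any of its starts has the run. Rpl22 has a pair of starts, of which the one nearer to the annotated gene is shown, without a run; the other has one. Among the mitochondrial ribosomal proteins the shares were 44.9% and 0.0%, and among all genes with an entry 34.4% and 3.01%. A match of letters is a description and not a measured start site.

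Libraries held 25360947 to 66160732 counts (median 36183962). All 10 fibroblast marker genes were tested and summed to between 15400 and 69700 CPM in each library, while 3 endothelial markers stayed at or below 13.4, 4 leukocyte and macrophage markers at or below 150 and 2 cardiomyocyte markers at or below 110. Markers of mural cells reached 418 to 3290. The targeted gene, Map3k7, was lower with iCre under TGFβ (222 to 233 against 126 to 154 CPM, log2 fold change -0.67 ± 0.08), IL-1β (-0.82 ± 0.09) and TNFα (-0.71 ± 0.10), and at -0.28 ± 0.07 (adjusted p = 0.137) in CTRL and -0.40 ± 0.12 (adjusted p = 0.351) with bFGF. Reads from exons outside the loxP sites still count for it, so this does not measure how much of the exon was lost. In iCre cells given TGFβ, IL-1β or TNFα, levels rose with GC content (slopes of 0.186 to 0.330 log2 units per 10 percentage points of GC, over 12152 other genes), while in all other libraries the slope lay between -0.253 and -0.004. These are the same libraries in which the ribosomal protein genes were high, and values corrected for it are given with each set of comparisons. Libraries of replicate 1 carry numbers 31 to 40 and those of replicates 2 to 4 numbers 51 to 80 in the labels.

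The 85 genes together took 2.30% to 5.10% of all counts in a library. In LacZ cells the percentages were 2.94, 3.87, 3.23 and 3.32 in CTRL (mean 3.34 ± 0.389, SD, n = 4), 2.75, 2.75, 2.81 and 2.70 for TGFβ, 2.30, 2.89, 2.43 and 2.58 with IL-1β, and 2.79, 3.19, 2.71 and 2.84 with TNFα. In iCre cells they were 2.85, 3.56, 3.58 and 3.50 in CTRL, 3.29, 3.16, 3.61 and 3.78 with TGFβ, 3.59, 4.22, 3.99 and 4.0 with IL-1β, and 3.87, 5.10, 4.78 and 5.09 with TNFα. Within each of these ligands every iCre library lay above every LacZ library, while the iCre and LacZ libraries overlapped in CTRL and with bFGF (3.15 to 4.55 in LacZ, 3.10 to 3.97 in iCre). In LacZ cells with TGFβ the share was below that of all 4 CTRL libraries, whereas the same counts after TMM scaling averaged 32950 CPM against 30370 in CTRL, so the direction of this difference depends on the scaling. Less RNA per cell and fewer cells of a type cannot be told apart in such bulk samples.

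**Figure D1:**
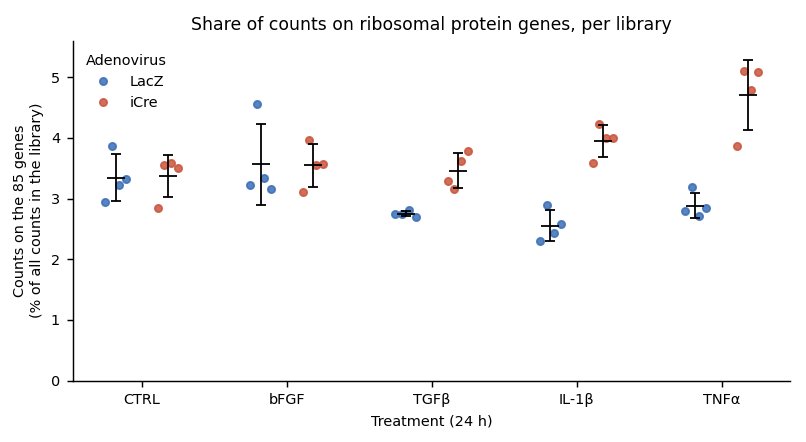
Percent of all counts that fell on the 85 ribosomal protein genes in each of the 40 libraries, by treatment and virus; points are libraries, and bars give the mean and SD of 4. The iCre libraries with TNFα lie between 3.87 and 5.10%, above the LacZ libraries with TNFα at 2.71 to 3.19%.

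Levels differed widely between members. In CPM per kilobase of exon in LacZ CTRL cells, Rplp1, a protein of the stalk that binds elongation factors, was highest at 1810 ± 109.6 (SD, n = 4), followed by Rps15 at 768 ± 73.1, Rplp0 at 742 ± 78.5, Rpl4 at 587 ± 54.4 and Rpl32 at 488 ± 44.1. Rps15 and Rplp0 did not differ beyond their spread. The lowest were Rps19bp1 at 10.2 ± 0.905, Rpl36al at 5.52 ± 0.511, Rps27rt at 4.05 ± 0.755, Rpl39l at 0.503 ± 0.332 and Rpl3l at 0.0101 ± 0.0128. Rpl3l, the muscle form of Rpl3, had 0 to 4 counts per library. With the principal transcript in place of all exons Rplp1 was again first and the 5 lowest had the same places, while Rpl32 moved from place 5 to 25. Reads shared with near-identical copies limit such levels, since a median of 14.2% of the windows of read length in a member occur in other annotated genes as well, and 89.4% of those of Rps27rt.

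The first comparisons ask what each ligand did in cells with TAK1. In LacZ cells, TGFβ gave 17 higher and 2 lower members (adjusted p at or below 0.05, edgeR quasi-likelihood test; median log2 fold change 0.14), against 17.5% of all genes tested called higher and 19.3% lower. IL-1β gave 1 higher and 19 lower (median -0.18), against 11.1% and 9.55% of all genes. TNFα gave 0 higher and 6 lower (median -0.07), against 10.9% and 10.4%. With bFGF 1 member was higher and 0 lower (median 0.15), against 7.0% and 4.64%. Under TNFα no member was called higher by edgeR, 17 had an unadjusted p under 0.05 in either direction, and DESeq2 called 2 higher. With bFGF no member was called lower by edgeR or DESeq2, and 5 had an unadjusted p under 0.05. Summed mural markers rose with TGFβ (1490 to 2140 CPM against 541 to 1000 in CTRL), as did fibroblast ones (57200 to 66600 against 30400 to 47700). Cardiomyocyte markers lay below all CTRL libraries (14.7 to 110) with TGFβ (2.85 to 14.4), IL-1β (0.299 to 1.67) and TNFα (0.944 to 6.65). The part of these shifts was not tested.

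The core genes moved by small amounts in these cells, with 70 of 77 below CTRL under IL-1β, from -0.57 for Rpl37a to 0.05 for Rpl24. All 4 IL-1β libraries lay below all CTRL libraries for 38 of the 85 members, against 12.6% of all genes. With replicate numbers as a block 40 members were lower under IL-1β and 1 higher, 22 lower and 1 higher under TNFα, and 19 higher and 0 lower with bFGF, while the block called 17.3% and 18.4% of all genes lower under IL-1β and TNFα and 14.2% higher with bFGF. Without replicate 3 only 2 members were called under IL-1β and 5 under TGFβ, without replicate 4 the counts were 6 and 7, without replicate 1 the TGFβ count was 8, and without replicate 2 the IL-1β count was 13. The TNFα count was 2 without replicate 1 and 0 without replicate 3 or 4, and the single member called with bFGF, Rpl7l1 at 0.30, was not called without replicate 1, 3 or 4. Fits with 1 replicate number left out, here and below, use fewer libraries. Their counts are given without the share of all genes and are not read against it. Scaling by library size alone shifted the median of all genes by -0.40 under TGFβ, -0.22 under IL-1β and -0.14 under TNFα, and gave 0 higher and 41 lower members under TGFβ, so the direction of the TGFβ difference flips with the scaling while those of IL-1β (56 lower) and TNFα (18 lower) do not. That scaling called 33.5%, 17.7% and 15.9% of all genes lower under TGFβ, IL-1β and TNFα, so the TNFα count was near the share of all genes. With each library corrected for GC content and transcript length, together with the block, 26 members were higher and 1 lower under TGFβ (median 0.13), 2 higher and 31 lower under IL-1β (median -0.10) and 10 higher and 0 lower with bFGF (median 0.08), against 18.3% of all genes higher, 18.4% lower and 13.3% higher, so the TGFβ and IL-1β counts were above that share and the bFGF count was below it. Under TNFα the balance turned with that correction, to 16 higher and 8 lower (median 0.02), against 16.9% and 18.6% of all genes, so the higher count was near the share of all genes. The correction for GC alone gave 1 higher and 26 lower under TNFα, against 19.1% of all genes lower. Under TGFβ it gave 15 higher and 5 lower (median 0.07), against 4501 of 24970 genes higher, so that count was near the share of all genes. Under IL-1β it gave 1 higher and 51 lower (median -0.22), against 4659 of 24970 genes lower.

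In iCre cells the members were higher with TGFβ, IL-1β and TNFα than in CTRL. TGFβ gave 75 higher and 1 lower (median 0.51, or 1.43-fold), against 18.6% and 18.8% of all genes. IL-1β gave 61 higher and 1 lower (median 0.40, or 1.32-fold), against 9.38% and 6.88%. TNFα gave 77 higher and 1 lower (median 0.64, or 1.56-fold), against 14.7% and 12.3%. The 1 lower member was Rpl22l1 in each of the 3 comparisons. Summed mural markers were also higher with TGFβ in iCre cells, at 1820 to 3290 CPM against 737 to 1420 in CTRL. The fibroblast sum stood at 46900 to 61800 against 20800 to 37000, and the part of these shifts was not tested. With bFGF no member was called by edgeR in either direction, against 1.79% and 0.635% of all genes, 6 had an unadjusted p under 0.05, DESeq2 called 1 higher, and the replicate block called 12 higher, against 9.28% of all genes. By library size alone the TGFβ count fell to 7 higher and 2 lower with a median of 0.06, that of IL-1β to 16 higher and 1 lower, and that of TNFα to 69 higher and 1 lower, against 9.03%, 4.91% and 10.7% of all genes higher, with shifts of all genes of -0.44, -0.13 and -0.13, so the TGFβ count was then near the share of all genes. The IL-1β count was 25 without replicate 1, 22 without replicate 3 and 23 without replicate 4. With the block and the correction for GC, 67 members were higher and 0 lower under TGFβ (median 0.36), 68 and 1 under IL-1β (median 0.27) and 80 and 1 under TNFα (median 0.50), against 18.7%, 14.2% and 16.1% of all genes higher. With GC and length corrected together the counts were 44 and 2 (median 0.24), 45 and 2 (median 0.15) and 61 and 2 (median 0.34), against 18.5%, 14.3% and 15.8% of all genes higher, so that the TGFβ count fell by more than 1.5 times, and Rpl36, Rps21, Rpl37a, Rps27 and Rpl11 were then at or below 0 under TGFβ.

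TAK1 deletion was compared within each treatment, as iCre against LacZ virus. No group had iCre without floxed alleles, so the loss of TAK1 and other effects of iCre cannot be told apart. Treatments share no library here, but libraries of the same replicate number correlated between groups. In CTRL no member was called by edgeR in either direction (median -0.07), against 0.0278% and 0.0476% of all genes, with 3 members at an unadjusted p under 0.05 and 1 called lower by DESeq2. With bFGF no member was called either (median -0.03), against 0.0% and 0.0%, with 2 at an unadjusted p under 0.05 by edgeR and 3 by DESeq2, which called none. Under TGFβ 34 were higher and 1 lower (median 0.31, or 1.24-fold), against 2.51% and 5.87%. Under IL-1β 76 were higher and 1 lower (median 0.52, or 1.43-fold), against 7.14% and 8.98%. Under TNFα 80 were higher and 1 lower (median 0.67, or 1.59-fold), against 14.8% and 12.6%. Both subunits took part, with 45 of 46 large and 31 of 31 small subunit genes higher under TNFα, at medians of 0.68 and 0.67. Genes at 100 CPM or more, 2151 in number, had medians of -0.01, -0.04 and 0.00 in the 3 comparisons. The summed fibroblast markers were lower with iCre under TNFα (15400 to 23400 CPM against 25800 to 34600 in LacZ) and under IL-1β (22800 to 35700 against 36600 to 69700), without overlap, and overlapped under TGFβ (46900 to 61800 against 57200 to 66600), in CTRL and with bFGF. A sum does not show single genes, and Vim, on the same list, went the other way. It was at 0.78 ± 0.18 (SE, edgeR adjusted p = 0.0091) under TNFα and at 0.59 ± 0.19 (SE, adjusted p = 0.0663) under IL-1β. The other fibroblast markers are not given one by one here. The part of the markers in the result was not tested.

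All 77 core genes had positive values under IL-1β and under TNFα. Under TNFα they ran from 0.32 for Rpl39, the only core gene not called, to 0.94 for Rps28, and under IL-1β from 0.26 for Rpl7 to 0.85 for Rps28, with Rpl7, Rpl15, Rps3a1 and Rps4x not called. Under TGFβ they ran from 0.00 for Rps3a1 to 0.75 for Rpl37a. All 4 iCre libraries lay above all LacZ libraries for 80 of the 85 members under TNFα, for 80 under IL-1β and for 59 under TGFβ, against 15.1%, 11.1% and 8.03% of all genes. With the replicate block the TGFβ count was 62 higher and 1 lower, against 9.67% of all genes higher. In CTRL the block gave 1 higher and 8 lower and with bFGF 2 higher and 3 lower, against 7.7% and 7.22% of all genes lower, so the CTRL count was near that share and the bFGF count below it. In these 2 treatments the correction for GC and length turned the balance, to 10 higher and 0 lower in each (medians 0.06 and 0.08), against 5.49% and 5.12% of all genes higher. The TGFβ count was 11 without replicate 1 and 2 without replicate 3 or without replicate 4, the IL-1β count 36 and the TNFα count 53 without replicate 3. In the libraries of replicates 2 to 4 alone 11, 61 and 82 members were called under TGFβ, IL-1β and TNFα, at medians of 0.35, 0.55 and 0.75. No share of all genes stands beside the counts with a replicate left out, so they are not read against it.

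**Figure D2:**
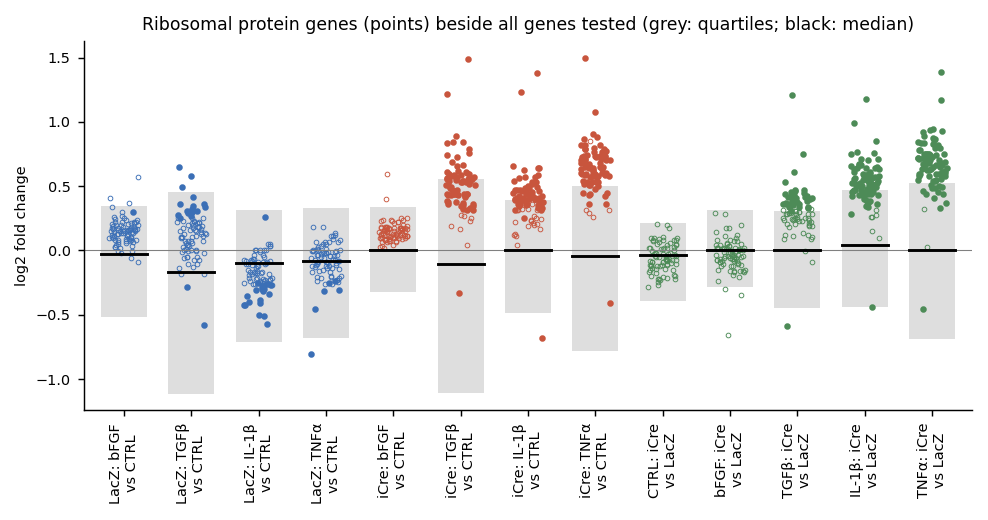
Log2 fold changes of the ribosomal protein genes in each comparison, 1 point per gene with a mean of at least 1 CPM (filled where the adjusted p was at most 0.05), beside the median and quartiles of all genes tested. The medians for iCre against LacZ are -0.07 in CTRL, -0.03 with bFGF, 0.31, 0.52 and 0.67 for TGFβ, IL-1β and TNFα.

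The difference between the ligand responses of iCre and LacZ cells was tested as an interaction over 16 libraries. For TNFα the ligand change of 78 members was more positive in iCre cells and that of 0 more negative (median 0.69). Of all genes 8.38% and 7.7% were called in these directions. More positive need not mean larger in size, since some members fell in LacZ cells, such as Rpl37a under TGFβ at -0.58. For IL-1β the counts were 62 and 0 (median 0.55), against 2.76% and 4.95%. For TGFβ they were 12 and 0 (median 0.34), against 0.893% and 3.62%. With the replicate block they were 20 and 0, against 2.36% of all genes with a more positive change. For bFGF no member was called by edgeR or DESeq2 (median 0.00), against 0.0% and 0.0%, and none had an unadjusted p under 0.05 by edgeR. No member was called in the more negative direction for the other ligands, and DESeq2 called none in that direction either. By edgeR 80, 79 and 54 members had an unadjusted p under 0.05 in either direction for TNFα, IL-1β and TGFβ. Among the members called, the largest values were those of Rpl37a for TGFβ (0.94), Rpl36al for IL-1β (1.21) and Rps27rt for TNFα (1.65). Rps27rt had larger values, of 1.47 ± 0.50 (SE, adjusted p = 0.13) and 1.44 ± 0.49 (SE, adjusted p = 0.0966) for TGFβ and IL-1β, but was not called there. The TNFα count was 31 without replicate 3 and 36 without replicate 4, the IL-1β count 41, 25 and 32 without replicates 2, 3 and 4, and the TGFβ count 4, 1 and 1 without replicates 1, 3 and 4.

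The members have a median GC content of 50.9% and a median longest transcript of 1094 bases, against 3236 bases for protein-coding genes tested. Where each library was corrected for its trend with GC, together with the replicate block, the deletion gave 34 higher and 1 lower under TGFβ (median 0.21), 80 and 0 under IL-1β (median 0.44) and 78 and 1 under TNFα (median 0.50), against 3.99%, 11.3% and 13.3% of all genes higher. With a correction for GC and length together the counts were 33 and 1 (median 0.15), 63 and 0 (median 0.34) and 47 and 1 (median 0.31), against 3.97%, 11.2% and 12.5%. The interaction counts with that correction were 6, 42 and 39 members, all more positive in iCre cells, for TGFβ, IL-1β and TNFα. The shares of all genes were 1.22%, 5.6% and 9.17%. The interaction medians over all members were 0.10, 0.24 and 0.25 with it, against 0.34, 0.55 and 0.69 without block or correction. For TGFβ, IL-1β and TNFα the direction of these medians was thus the same with and without the corrections, while their sizes were smaller with them. Across the 83 members at 1 CPM or more, the deletion effects under TNFα went with GC content (Pearson r 0.35, Spearman rho 0.42) and against transcript length (r -0.30, rho -0.34); these points share libraries and give a description only.

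**Figure D3:**
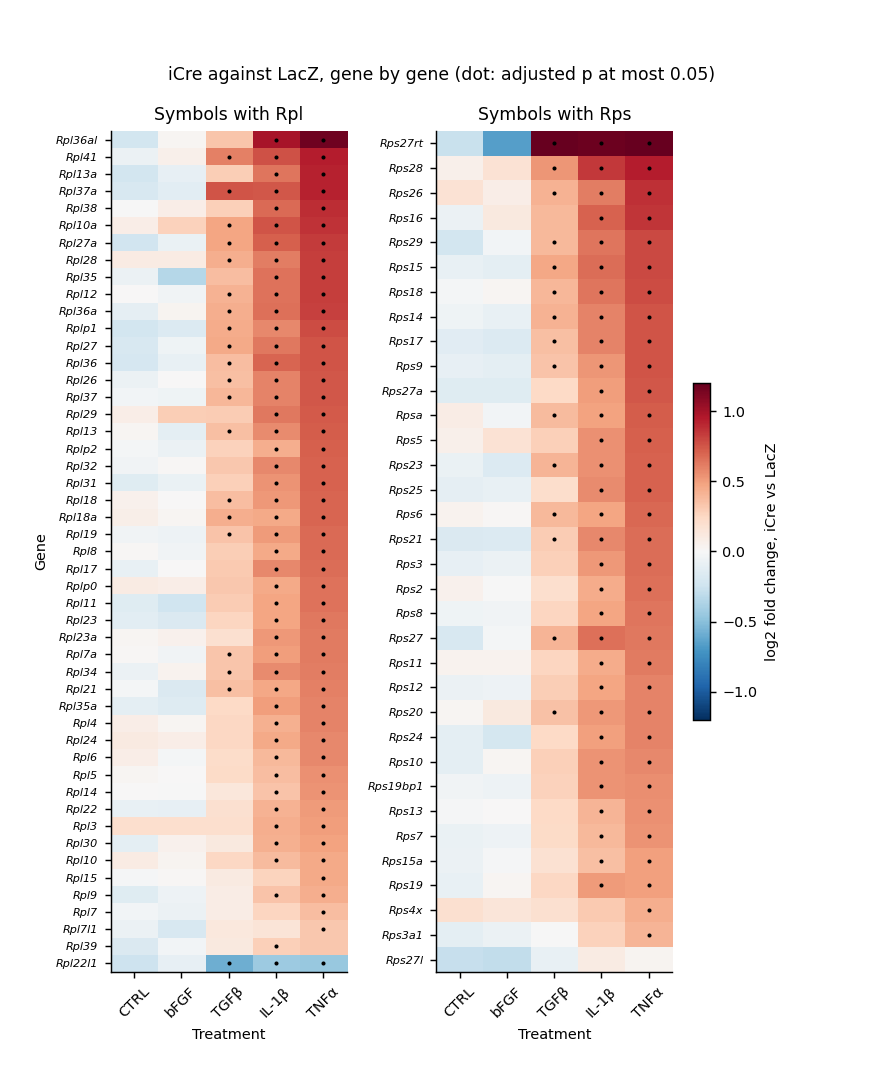
Log2 fold change of iCre against LacZ for each of 83 ribosomal protein genes (rows, large subunit symbols left and small subunit symbols right) in the 5 treatments (columns); dots mark an adjusted p of at most 0.05. Values under TNFα and IL-1β are positive for all 77 core genes, and Rpl22l1 is negative under TGFβ, IL-1β and TNFα.

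The differences of single members were also set side by side between treatments. Over the same 83 members the deletion effects under IL-1β and TNFα, which share no library, had a Pearson r of 0.95 and a Spearman rho of 0.90, and those under TGFβ had r of 0.89 with either (rho 0.83 and 0.84). The effects in CTRL and with bFGF, where edgeR called no member, had r of 0.63 and rho of 0.64, and those in CTRL and under TNFα r of 0.00 and rho of -0.09. These correlations are across genes that share their base composition, length and level between comparisons, and are given as a description. Splitting the members by the pyrimidine run at the start separated them little. Under TNFα the 14 members with a run exactly at the start had a median of 0.68, the 26 with no run 0.66 and the 20 with no entry 0.69.

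Of the marker genes, Rps6 was higher with iCre under TGFβ, IL-1β and TNFα. Rps6, the protein of the small subunit phosphorylated by S6 kinase, stood at 323, 338, 293 and 305 CPM in the LacZ libraries with TNFα and at 411, 526, 520 and 541 in the iCre libraries, in order of replicate. Every iCre library was higher, with the lowest in replicate 1. In CTRL the values were 279, 334, 299 and 295 with LacZ and 284, 314, 336 and 320 with iCre, which overlap. The deletion difference of Rps6 was 0.69 ± 0.11 (SE, adjusted p = 0.00158) under TNFα, 0.48 ± 0.08 (SE, adjusted p = 0.00364) under IL-1β and 0.39 ± 0.09 (SE, adjusted p = 0.0229) under TGFβ, and its interaction 0.63 ± 0.13 (SE, adjusted p = 0.00399) for TNFα. With the correction for GC and length the TNFα difference of Rps6 was 0.24 (adjusted p = 0.0727).

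Rpl3, which lies near the peptidyl transferase centre, stood at 770, 789, 687 and 719 with LacZ and 893, 1100, 1058 and 1089 with iCre under TNFα, again without overlap. In CTRL Rpl3 stood at 752, 874, 888 and 778 with iCre and 692, 817, 659 and 671 with LacZ, which overlap. The deletion difference of Rpl3 was 0.50 ± 0.11 (SE, adjusted p = 0.00745) under TNFα, and its interaction was 0.29 ± 0.14 (SE, adjusted p = 0.186), so a different response in iCre cells was not shown for this gene. It was the lowest core gene for TGFβ in iCre cells, at 0.05 ± 0.10 (SE, adjusted p = 0.772), and the highest for iCre against LacZ in CTRL, at 0.20 ± 0.10 (SE, adjusted p = 0.396). Corrected for GC and length the TNFα difference of Rpl3 was 0.25 (adjusted p = 0.0705).

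The stalk proteins Rplp0, Rplp1 and Rplp2, which recruit elongation factors, rose together with Rpsa, the small subunit protein also known as laminin receptor. Rplp0 stood at 1266, 1417, 1183 and 1221 with LacZ and 1636, 2205, 1988 and 2044 with iCre under TNFα, a difference of 0.65 ± 0.13 (SE, adjusted p = 0.00472). The values were 0.78 ± 0.11 (SE, adjusted p = 0.000795) for Rplp1, 0.72 ± 0.13 (SE, adjusted p = 0.00305) for Rplp2 and 0.73 ± 0.13 (SE, adjusted p = 0.00298) for Rpsa, with no overlap for any of the 4 genes. Corrected for GC and length, Rpsa was at 0.51 (adjusted p = 0.00871) and Rplp0 at 0.31 (adjusted p = 0.031), while Rplp1 was at 0.14 (adjusted p = 0.313) and Rplp2 at 0.26 (adjusted p = 0.092). Under TGFβ the adjusted p of Rplp0 was 0.0571, and 0.00456 with the replicate block, and that of Rplp2 was 0.0744, and 0.0148 with it.

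Of the members with roles outside the ribosome, Rpl5, Rpl11, Rpl13a, Rpl22, Rps3 and Rps27a were higher with iCre under TNFα, and Rps27l was not called. Rpl5 and Rpl11, which bind Mdm2 and so stabilize p53, differed by 0.55 ± 0.11 (SE, adjusted p = 0.00552) and 0.65 ± 0.11 (SE, adjusted p = 0.00222) under TNFα, and Rps3, which also takes part in NF-κB complexes, by 0.67 ± 0.13 (SE, adjusted p = 0.00343). Rps27a, made as a fusion with ubiquitin, differed by 0.74 ± 0.10 (SE, adjusted p = 0.000811). Corrected for GC and length, Rpl5 was at 0.70 (adjusted p = 0.00115), Rps27a at 0.65 (adjusted p = 0.000885) and Rps3 at 0.53 (adjusted p = 0.00433), while Rpl11 was at 0.22 (adjusted p = 0.148). Rpl13a, known for silencing inflammatory mRNAs as part of the GAIT complex, stood at 72.1, 95.7, 79.4 and 81.7 with LacZ and at 117, 178, 162 and 159 with iCre under TNFα. Every iCre library was above every LacZ library, with replicate 1 the lowest of both. The difference of Rpl13a was 0.93 ± 0.14 (SE, adjusted p = 0.00101), or 0.51 (adjusted p = 0.00123) corrected for GC and length, and its response to TNFα in iCre cells, 1.08, was the largest among the core genes.

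Rpl37a, a zinc-binding protein of the large subunit, was the lowest of the core genes relative to CTRL in LacZ cells with TGFβ, IL-1β or TNFα. It stood at 236, 289, 237 and 240 in CTRL, 181, 158, 174 and 147 under TGFβ, 156, 190, 182 and 140 under IL-1β and 203, 215, 157 and 152 under TNFα. Every library with one of these 3 ligands was below every CTRL library, of which replicate 2 was highest, while the bFGF libraries, at 258, 311, 253 and 183, overlapped with CTRL. The ligand differences of Rpl37a were -0.58 ± 0.10 (SE, adjusted p = 0.00126), -0.57 ± 0.11 (SE, adjusted p = 0.00522) and -0.46 ± 0.13 (SE, adjusted p = 0.0282) for TGFβ, IL-1β and TNFα. Rpl36, another large subunit protein, came next for TGFβ and IL-1β, at -0.28 ± 0.09 (SE, adjusted p = 0.0274) and -0.51 ± 0.09 (SE, adjusted p = 0.00311). It stood at 165, 201, 164 and 166 in CTRL and 117, 134, 112 and 120 under IL-1β, without overlap. For TNFα Rps21, of the small subunit, came next among the core genes, at -0.31 ± 0.08 (SE, adjusted p = 0.0243).

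In iCre cells Rpl37a stood at 304, 273, 274 and 282 under TGFβ, 274, 281, 295 and 280 under IL-1β and 296, 368, 353 and 344 under TNFα, all above the LacZ libraries with the same ligand. The deletion difference was 0.75 ± 0.09 (SE, adjusted p = 0.000557), 0.75 ± 0.11 (SE, adjusted p = 0.00121) and 0.92 ± 0.14 (SE, adjusted p = 0.000969), and 0.40 (adjusted p = 0.00125), 0.34 (adjusted p = 0.00464) and 0.36 (adjusted p = 0.0319) when corrected for GC and length. Rpl37a has no pyrimidine run in the sequence shown above.

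Rpl27, Rpl27a and Rpl41, proteins of the large subunit, were among the members with the largest differences. Rpl27 stood at 55.3, 70.7, 74.9 and 75.4 in CTRL and 97.8, 132, 136 and 141 with TNFα in iCre cells, without overlap. Its differences in iCre cells were 0.89 ± 0.12 (SE, adjusted p = 0.000204) for TGFβ, the highest of the core genes, and 0.91 ± 0.14 (SE, adjusted p = 0.00116) for TNFα, or 0.45 (adjusted p = 0.000718) and 0.41 (adjusted p = 0.000704) corrected for GC and length. Rpl27a had the highest interaction of the core genes for IL-1β, 0.94 ± 0.14 (SE, adjusted p = 0.000393), and the second for TGFβ, 0.70 ± 0.14 (SE, adjusted p = 0.0058). With the correction these interactions of Rpl27a were 0.86 (adjusted p = 1.01e-05) and 0.66 (adjusted p = 0.00265). Rpl27a stood at 197, 230, 201 and 205 with LacZ and 323, 360, 353 and 345 with iCre under IL-1β, without overlap. Rpl41, a very short protein, differed between the viruses by 0.61 ± 0.10 (SE, adjusted p = 0.00437) under TGFβ, or 0.32 (adjusted p = 0.0109) corrected, and was the highest core gene for IL-1β in iCre cells, at 0.66 ± 0.09 (SE, adjusted p = 0.00159).

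Rps28, a small subunit protein near the mRNA exit, had the largest deletion difference among the core genes under IL-1β and TNFα. It stood at 109, 114, 101.2 and 107 with LacZ and 187, 209, 204 and 185 with iCre under IL-1β, a difference of 0.85 ± 0.08 (SE, adjusted p = 0.000143), and at 0.94 ± 0.12 (SE, adjusted p = 0.000469) under TNFα. With the correction for GC and length the values of Rps28 were 0.78 (adjusted p = 6.78e-07) and 0.71 (adjusted p = 0.000726). At the other end Rpl39, which lines the exit tunnel, stood at 152, 160, 145 and 163 with LacZ and 155, 195, 192 and 220 with iCre under TNFα. The groups overlap through replicate 1 of iCre, and the difference of Rpl39 was 0.32 ± 0.11 (SE, adjusted p = 0.0509), or 0.0279 as adjusted p with the replicate block. Corrected for GC and length, the TNFα response of Rpl39 in iCre cells turned from 0.26 to -0.19, and its TNFα interaction was -0.11.

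The paralogs did not all follow their partners. Rpl22l1 is the paralog of Rpl22, an RNA-binding protein of the large subunit, which is known to repress Rpl22l1 by binding its mRNA. Rpl22l1 (chr3:28805436-28807424, GRCm38) stood at 58.3, 55.6, 55.3 and 61.7 with LacZ and 39.2, 41.9, 42.1 and 43.3 with iCre under TNFα. Rpl22 (chr4:152325742-152334071) stood at 263, 267, 243 and 261 and 299, 392, 365 and 397 in the same libraries. Neither pair of groups overlapped, and the 2 genes lay on opposite sides. The deletion difference of Rpl22l1 was -0.58 ± 0.08 (SE, adjusted p = 0.00132) under TGFβ, -0.44 ± 0.10 (SE, adjusted p = 0.0159) under IL-1β and -0.45 ± 0.07 (SE, adjusted p = 0.00155) under TNFα, the only member called lower in each. That of Rpl22 was 0.19 ± 0.09 (SE, adjusted p = 0.258), 0.41 ± 0.09 (SE, adjusted p = 0.0101) and 0.51 ± 0.10 (SE, adjusted p = 0.00541).

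In CTRL, Rpl22l1 stood at 53.5, 49.6, 60.4 and 62.7 with iCre and 74.1, 64.9, 61.7 and 65.6 with LacZ, at -0.25 ± 0.10 (SE, adjusted p = 0.296), with an adjusted p of 0.0394 with the replicate block. The interactions of Rpl22l1 were not called (-0.34, -0.19 and -0.21 for TGFβ, IL-1β and TNFα), so its lower level in iCre cells was not shown to depend on the ligand. Corrected for GC and length, the deletion differences of Rpl22l1 were -0.32 (adjusted p = 0.0108), -0.18 (adjusted p = 0.0881) and -0.35 (adjusted p = 0.00705). In LacZ cells Rpl22l1 was also lower with IL-1β than in CTRL, at -0.50 ± 0.11 (SE, adjusted p = 0.00786).

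Rps27l, a p53 target and paralog of Rps27, was not called between the viruses by edgeR in any treatment. Under TNFα it stood at 123, 114, 124 and 128 with LacZ and 124, 120, 124 and 124 with iCre, so the groups overlap. Rps27 stood at 278, 327, 263 and 272 and 378, 462, 452 and 454 there, without overlap. The deletion difference of Rps27l was 0.03 ± 0.07 (SE, adjusted p = 0.808) under TNFα, 0.09 ± 0.07 (SE, adjusted p = 0.423) under IL-1β and -0.09 ± 0.12 (SE, adjusted p = 0.75) under TGFβ, against 0.64 ± 0.11 (SE, adjusted p = 0.00201), 0.66 ± 0.09 (SE, adjusted p = 0.000779) and 0.41 ± 0.09 (SE, adjusted p = 0.0185) for Rps27. In CTRL Rps27l stood at 105, 113, 119 and 117 with LacZ and 90.3, 89.6, 95.7 and 100.7 with iCre, without overlap, at -0.28 ± 0.07 (SE, adjusted p = 0.147), and DESeq2 and the replicate block called it lower (adjusted p = 0.0153 and 0.00417). With bFGF it did not overlap either, with iCre lower. Its interaction was 0.30 ± 0.09 (SE, adjusted p = 0.0367) for TNFα and 0.37 ± 0.09 (SE, adjusted p = 0.0198) for IL-1β. Corrected for GC and length the CTRL difference of Rps27l was -0.01 (adjusted p = 0.989) and its TNFα interaction -0.07 (adjusted p = 0.548). With the correction for GC and length Rps27 was at 0.09 (adjusted p = 0.479) under TNFα and 0.30 (adjusted p = 0.00444) under IL-1β. Rps27rt, a short gene (chr9:114982366-114982739) that shares 89.4% of its windows with Rps27, had 21 to 235 counts per library, and its difference of 1.39 ± 0.23 (SE, adjusted p = 0.00202) is uncertain, since reads of Rps27 may count for it.

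Rpl36al (chr12:69182731-69184083), the paralog of the X-linked Rpl36a, had low levels and large differences. It stood at 7.29, 9.02, 7.41 and 8.48 with LacZ and 13.5, 19.3, 16.8 and 21.7 with iCre under TNFα, and at 6.72, 6.49, 8.01 and 8.50 and 14.9, 14.2, 14.4 and 16.1 under IL-1β. The libraries of the viruses did not overlap under either ligand. The deletion difference of Rpl36al was 1.17 ± 0.16 (SE, adjusted p = 0.00067) and 0.99 ± 0.12 (SE, adjusted p = 0.000601), and 0.34 ± 0.18 (SE, adjusted p = 0.317) under TGFβ, against 0.82 ± 0.12 (SE, adjusted p = 0.00116), 0.66 ± 0.09 (SE, adjusted p = 0.000785) and 0.43 ± 0.10 (SE, adjusted p = 0.0226) for Rpl36a. With the correction for GC and length Rpl36al was at 0.87 (adjusted p = 0.000817) under TNFα and 0.87 (adjusted p = 1.57e-05) under IL-1β.

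**Figure D4:**
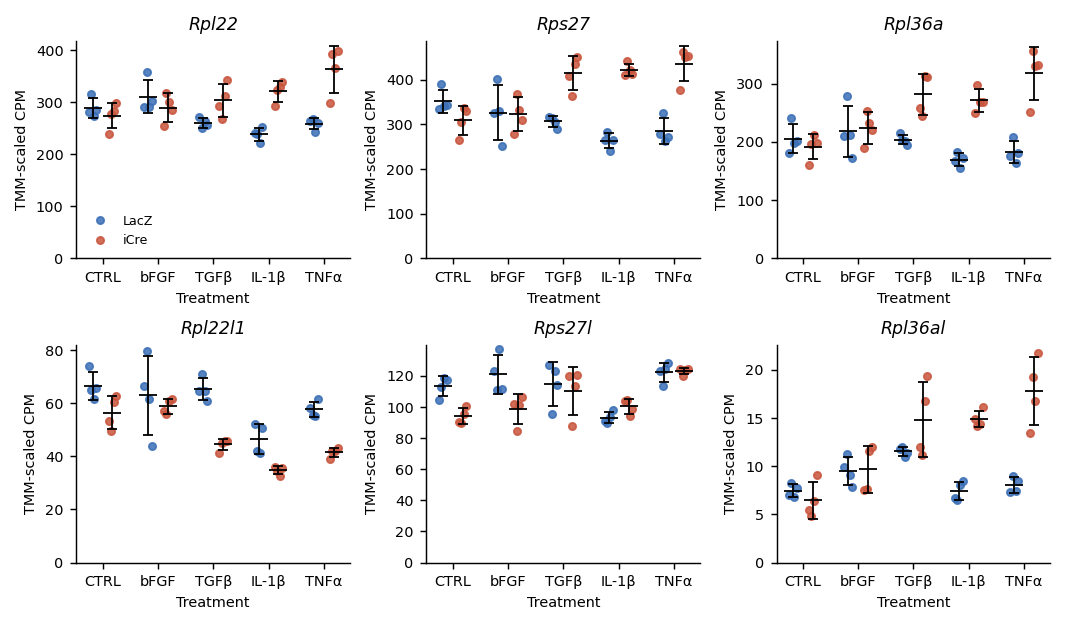
TMM-scaled CPM in each library for paralogs (lower row) and their core partners (upper row), by treatment and virus; points are libraries, and bars give the mean and SD of 4. Rpl22l1 lies lower with iCre under TNFα while Rpl22 lies higher, and under that ligand Rps27l overlaps between the viruses while Rps27 does not.

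Rpl7l1, a paralog of Rpl7 with a role in making the large subunit, rose with several ligands in LacZ cells. Its ligand difference in LacZ cells was 0.58 ± 0.07 (SE, adjusted p = 0.000172) for TGFβ and 0.26 ± 0.07 (SE, adjusted p = 0.0246) for IL-1β, while that of Rpl7 was 0.13 ± 0.10 (SE, adjusted p = 0.349) and -0.17 ± 0.11 (SE, adjusted p = 0.318). With TNFα the ligand difference of Rpl7l1 was 0.18 ± 0.06 (SE, adjusted p = 0.0695), and its interaction 0.39 ± 0.09 (SE, adjusted p = 0.00731). The deletion difference was 0.33 ± 0.07 (SE, adjusted p = 0.00882) for Rpl7l1 and 0.37 ± 0.11 (SE, adjusted p = 0.029) for Rpl7 under TNFα, and Rpl7l1 was at 0.17 (adjusted p = 0.1) with the correction for GC and length. Rps19bp1, a nucleolar protein, differed by 0.56 ± 0.11 (SE, adjusted p = 0.00478) under TNFα and by 0.06 (adjusted p = 0.718) with that correction. Rpl39l, the testis form of Rpl39, had 2 to 52 counts per library and was not called in these comparisons.

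Other genes of the translation machinery were taken from lists. Of 20 further ribosomal genes and genes of TOP mRNAs, 15 were higher and 1 lower with iCre under TNFα (median 0.49), 11 and 1 under IL-1β (median 0.39) and 2 and 1 under TGFβ (median 0.15; 7 and 1 with the replicate block). The shares of all genes called higher and lower were 14.8% and 12.6% under TNFα, 7.14% and 8.98% under IL-1β and 2.51% and 5.87% under TGFβ, and 9.67% were higher under TGFβ with the block. Fau, which holds a small subunit protein, was at 0.70 ± 0.11 (SE, adjusted p = 0.00156) under TNFα, Rack1, the scaffold on the small subunit, at 0.63 ± 0.13 (adjusted p = 0.00486) and the elongation factor Eef1b2 at 0.76 ± 0.12 (adjusted p = 0.00137). Eif3e, a subunit of initiation factor eIF3, was the member of the list that was lower, at -0.65 ± 0.14 (adjusted p = 0.00636). Of 78 mitochondrial ribosomal proteins 49, 23 and 7 were higher and 1 lower in each case under TNFα, IL-1β and TGFβ, at medians of 0.41, 0.22 and 0.20, and under TGFβ 24 were higher with the replicate block. Corrected for GC and length, together with the block, and in the same order of ligands, the mitochondrial counts were 34 higher and 3 lower (median 0.23), 28 and 2 (median 0.14) and 16 and 0 (median 0.13), and those of the 20 further genes 12 and 0 (median 0.38), 14 and 0 (median 0.35) and 3 and 1 (median 0.12). The correction called 12.5%, 11.2% and 3.97% of all genes higher. The medians of the core genes with it were 0.33, 0.35 and 0.15, and the difference between the lists was not tested.

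Genes of ribosome biogenesis, which make and process ribosomal RNA, rose with each ligand in LacZ cells. Of 33 genes 29 rose and 0 fell under TGFβ (median 1.16), 25 and 0 under IL-1β (median 0.53), 26 and 0 under TNFα (median 0.54) and 22 and 0 with bFGF (median 0.53), by edgeR, against 17.5%, 11.1%, 10.9% and 7.0% of all genes called higher. With the block and the correction for GC and length 29 were higher and 1 lower, 27 and 2, 27 and 0, and 28 and 0, against 18.3%, 15.7%, 16.9% and 13.3% of all genes higher. By library size alone they were 26 and 2, 14 and 2, 19 and 1, and 16 and 0, against 8.83%, 5.69%, 7.2% and 5.18%. In the same comparisons the ribosomal protein genes had medians of 0.14, -0.18, -0.07 and 0.15. The difference between the lists was not tested. Myc, the transcription factor that drives ribosome production, was at 2.51 ± 0.21 (adjusted p = 1.3e-05) under TGFβ and Nop56, a protein of the box C/D complex, at 2.11 ± 0.11 (adjusted p = 1.18e-06).

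With iCre against LacZ, 21 of the 33 biogenesis genes were higher and 1 lower under TNFα (median 0.49), 6 and 2 under IL-1β (median 0.20) and 1 and 1 under TGFβ (median 0.16), against 14.8%, 7.14% and 2.51% of all genes higher, so the TGFβ count was near that share. With the block 8 were higher and 2 lower under TGFβ and 14 and 3 under IL-1β, against 9.67% and 14.6% of all genes higher, and with the correction for GC and length the counts were 19 and 2 (median 0.33) under TNFα, 11 and 2 (median 0.16) under IL-1β and 2 and 0 (median 0.14) under TGFβ, against 12.5%, 11.2% and 3.97%. Myc was at 1.23 ± 0.22 (adjusted p = 0.00245) under TNFα, while Rrs1, a factor of large subunit assembly, was at -0.97 ± 0.10 (adjusted p = 0.000195). Of 18 regulators of TOP mRNA translation, 5 were higher and 2 lower under TNFα (median 0.12), 2 and 4 under IL-1β (median 0.11) and 1 and 1 under TGFβ (median 0.14), or 2 and 3, 4 and 3, and 2 and 1 with the block and the correction for GC and length (medians 0.08, 0.04 and 0.05). Set against 14.8%, 7.14% and 2.51% of all genes higher and 12.6%, 8.98% and 5.87% lower, and with the correction 12.5%, 11.2% and 3.97% higher and 14.1%, 11.5% and 5.03% lower, these are counts of a few genes in a list of 18, and nothing is read from them. Larp1 was at 0.02 ± 0.09 (adjusted p = 0.94) under IL-1β and at 0.00 ± 0.09 (adjusted p = 1.0) under TNFα. Larp4, which binds poly(A) and is known to stabilize ribosomal protein mRNAs, was at -0.58 ± 0.10 (adjusted p = 0.0018), and Rps6kb1, an S6 kinase, at -0.62 ± 0.10 (adjusted p = 0.00191) under TNFα.

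**Figure D5:**
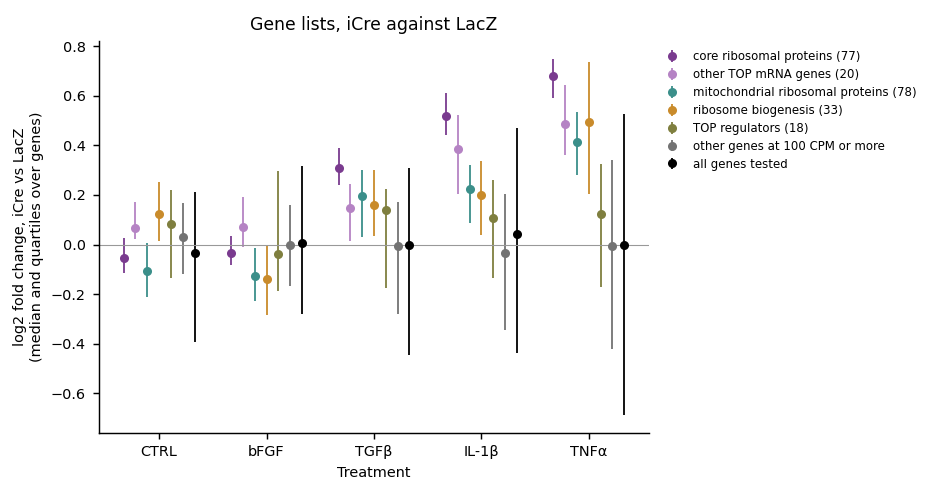
Median and quartiles of the log2 fold change of iCre against LacZ over the core ribosomal protein genes and the other gene lists, by treatment. Under TNFα the core ribosomal protein genes lie at 0.68, the biogenesis list at 0.49, the mitochondrial ribosomal proteins at 0.41 and all genes tested at 0.00, all without correction for GC or length.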

How the data were processed

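RNA of the 40 libraries was selected for poly(A) and read as single-end reads. Unnormalized counts of reads for each Ensembl gene were deposited by the authors, who used FastQC (0.10.1 in the submitters' processing notes, while the paper names another version), STAR on mm10 and HTSeq 0.10.0. The deposited table still holds genes without a count, and the filter and scaling described in the study belong to its later tests. The strand setting, the treatment of reads with several matches and the annotation release are not given in the sources used here, and the labels and the paper name different library kits. Overlapping, antisense and near-identical genes may therefore share reads, and counting error is a lower limit of the error, since no molecular identifiers were used.

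Identifiers were named from GENCODE M21 (52133 of 55414 matched). The 25210 genes with at least 10 counts in total were compared in edgeR 4.0.16 (quasi-likelihood F-test, R 4.3.3), with TMM scaling and Benjamini-Hochberg adjustment over all genes at 0.05, in 17 comparisons: 13 over 8 libraries and 4 interactions over 16. Levels are CPM after TMM scaling. A test on counts simulated from these libraries was run first. Alternatives were the DESeq2 1.42.0 Wald test (the tool of the study), RLE factors, library size alone, TMM without the members, other filters, each replicate number left out, a block for the replicate number, and the block with a correction of each library for a smooth trend (span 0.4) with GC content, or GC content and length, of the longest transcript, fitted on genes that are not members. The principal transcript as length was chosen after seeing the data. Replicate numbers paired the samples, since deviations from the group means correlated between libraries of the same number (lowest r 0.329, mean 0.622, against a mean of -0.175 between different numbers, over 11831 genes), and the pairing comes from these correlations and not from the labels. Tables were made with Python 3.11.15, pandas 2.3.3 and numpy 2.4.6. Promoter sequences are from RefSeq.

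The members and gene lists were chosen with earlier results of these data known. Members named are the markers Rpl3 and Rps6, paralogs with their partners, stalk proteins and Rpsa, members with roles outside the ribosome, the 3 largest changes in each direction of a comparison, and the 5 highest and 5 lowest levels; Rpl24, Rps3a1, Rpl15, Rps4x and Rpl38 were named after their values were seen, as ends of a range or members not called.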

Additional observations from a re-analysis of the deposited data

Results flagged for a closer look

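By the edgeR interaction test, ligand responses differed between iCre and LacZ cells for 12 members (TGFβ), 62 (IL-1β) and 78 (TNFα). All were more positive in iCre cells, against 0.893%, 2.76% and 8.38% of all genes. With the block and the correction for GC and length the counts were 6, 42 and 39, against 1.22%, 5.6% and 9.17%. With 1 replicate number left out they fell as low as 1, 25 and 31.

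Among 330 groups of 4 libraries tested for a single value far from the rest (Dixon's ratio above its 95% critical value), 32 had such a value. For independent groups chance alone gives about 1 in 20, but many of these groups are different genes in the same libraries. The number is therefore not read against that rate. In replicate 2 of LacZ CTRL, high values in CPM were found for Rps3 (776), Rpl37a (289), Rpl7 (722), Rps28 (139), Rpl36 (201) and Rpl38 (103). In replicate 1 of iCre CTRL low values were found for the share of all counts (2.85%), Rps27a (266), Rps28 (103) and Rps21 (189).

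Replicate 2 of LacZ with bFGF was high in the share of all counts (4.55%), Rpl3 (951), Rplp2 (451), Rpsa (1190), Rpl5 (515), Rps3 (880) and Rpl7 (800), and replicate 4 of that group was high in Rps27rt (5.08). Among the iCre libraries with bFGF, replicate 1 was low in Rplp2 (302) and Rpl39 (152), and replicate 4 was high in Rpl39l (1.42).

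With TGFβ, replicate 2 of iCre was low in Rplp1 (1050) and Rps21 (242). With IL-1β, replicate 4 of iCre was high in Rpl39l (0.803). With TNFα, replicate 4 of LacZ was high in Rpl39l (1.67) and replicate 2 in Rpl41 (487), and replicate 1 of iCre was low in Rps6 (411), Rpsa (1080), Rps27 (378), Rpl41 (651) and Rpl38 (126), while replicate 2 was low in Rps27l (120).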

How the results depend on the processing

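Members called under another setting are given where the count moved by over 1.5 times, as higher and lower together. Shares of all genes with DESeq2 and with the other filters are not given here. Those counts show only how far the member counts moved. With DESeq2 the counts were 2 for bFGF, 35 for TGFβ, 35 for IL-1β and 11 for TNFα in LacZ cells, 1 for bFGF in iCre cells, 1 for iCre against LacZ in CTRL, 59 for iCre against LacZ under TGFβ and 41 for the TGFβ interaction. By library size alone they were 0, 41, 56 and 18 for bFGF, TGFβ, IL-1β and TNFα in LacZ cells and 9 and 17 for TGFβ and IL-1β in iCre cells. With the filterByExpr filter they were 33 for IL-1β in LacZ cells and 28 for the TGFβ interaction, and without a filter 13 for IL-1β and 2 for TNFα in LacZ cells.

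With the replicate block they were 19, 41 and 23 for bFGF, IL-1β and TNFα in LacZ cells, 12 for bFGF in iCre cells, 9, 5 and 63 for iCre against LacZ in CTRL, bFGF and TGFβ, and 20 for the TGFβ interaction; the block moved no other count of members that far. With GC correction and the block they were 10, 52 and 27 for bFGF, IL-1β and TNFα in LacZ cells, 8 for bFGF in iCre cells, and 9 and 4 for iCre against LacZ in CTRL and bFGF. With GC and length correction and the block they were 10, 33 and 24 in LacZ cells with bFGF, IL-1β and TNFα, 5 and 46 in iCre cells with bFGF and TGFβ, 10, 10 and 48 for iCre against LacZ in CTRL, bFGF and TNFα, and 6 and 39 for the TGFβ and TNFα interactions. Directions turned with it, to 16 higher and 8 lower for TNFα in LacZ cells, and to 10 higher and 0 lower for iCre against LacZ both in CTRL and with bFGF, against 1 and 22, 1 and 8, and 2 and 3 with the block alone.

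With 1 replicate number left out, counts ran from 0 to 1 for bFGF, 5 to 27 for TGFβ, 2 to 14 for IL-1β and 0 to 6 for TNFα in LacZ cells, from 22 to 55 for IL-1β in iCre cells, from 2 to 46 for TGFβ, 36 to 76 for IL-1β and 53 to 82 for TNFα for iCre against LacZ, and from 1 to 15, 25 to 46 and 31 to 77 for the interactions of TGFβ, IL-1β and TNFα. The fits have fewer samples then, and no share of all genes is given beside these counts.

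By library size alone, these log2 fold changes turned. For TGFβ in LacZ cells they became -0.39 for Rpl3, -0.07 for Rplp0, -0.36 for Rplp1, -0.11 for Rpl13a, -0.32 for Rps3, -0.26 for Rps27a, -0.38 for Rps27l, -0.41 for Rpl36a, -0.29 for Rpl7, -0.34 for Rps28 and -0.0 for Rpl38. For TGFβ in iCre cells they became -0.40 for Rpl3, -0.02 for Rpl5, -0.08 for Rpl11, -0.01 for Rps27, -0.07 for Rpl37a, -0.14 for Rpl36 and -0.13 for Rps21. The log2 ratio of the summed level for TGFβ in LacZ cells was 0.12 on TMM-scaled CPM and negative on the share of all counts.

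With the block and the correction for GC and length they turned in iCre cells to -0.0 for Rpl11, -0.02 for Rps27, -0.07 for Rpl37a, -0.27 for Rpl36 and -0.17 for Rps21 under TGFβ, to -0.01 for Rpl11, -0.02 for Rpl37a, -0.26 for Rpl39, -0.11 for Rpl36 and -0.07 for Rps21 under IL-1β, and to -0.19 for Rpl39 and -0.03 for Rps21 under TNFα. For iCre against LacZ under TGFβ Rpl36 became -0.10, and the interactions became -0.10 for Rpl36 with TGFβ and -0.07 for Rps27l and -0.11 for Rpl39 with TNFα, while Rpl38 became 0.19 with TNFα in LacZ cells. The cause was not tested. Of the other values of 33 members that were followed one by one, 6544 kept direction and side of the threshold, 417 were weaker and 277 stronger. Counts limit Rpl3l, Rpl39l and Rps27rt.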

Other observations

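The 145 tested genes whose symbols carry "-ps", most of them annotated as pseudogenes of ribosomal protein genes, had medians for iCre against LacZ of 0.75 under TGFβ, 0.83 under IL-1β and 0.90 under TNFα, with 17, 19 and 25 called higher and 0 lower by edgeR, against 2.51%, 7.14% and 14.8% of all genes called higher. Their summed level was 48.9 ± 3.59 CPM in LacZ cells with TNFα and 103 ± 6.66 in iCre cells (SD, n = 4), and reads of the parent genes may count for them.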
